A study of Mus musculus with 6 samples.

Results

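In alternative 3' splice site events, the upstream exon can be joined to either of a pair of acceptor sites at the start of the same downstream exon. All distinct event names that the deposited table marks as this type were taken, which gave 807 of 13002 event names (6.21%), in 775 genes by symbol. Brain RNA came from 6 mice of a B6.CAST congenic line, homozygous for the *Nxf1* B6 allele in 3 and for the *Nxf1* CAST allele in 3, with 1 Affymetrix MJAY splicing-sensitive array per animal. Littermates of the same sex and unlike genotype were paired, which gave 2 pairs of females and 1 of males. Both animals of the first pair were 46 days old, both of the third were 23 days old, and in the second the *Nxf1* B6 animal was 22 days old and the *Nxf1* CAST animal 23 days old. *Nxf1* encodes the major export factor of mRNA, and the question was whether its alleles change the choice of processing sites in transcripts at large. In a congenic line a chromosome segment around the selected gene comes along with it, so neighbours of *Nxf1* on chromosome 19 carry CAST alleles in the same animals. For events in that segment, these arrays alone cannot tell the local sequence and the *Nxf1* allele apart.

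An intron ends at an AG dinucleotide, which follows a branch point and a tract of pyrimidines. The U2AF heterodimer binds the tract and the AG, SF1 and later the U2 snRNP bind the branch point, and the AG is chosen when the exons are joined in the second catalytic step. Where a pair of acceptors competes, use of the upstream one lengthens the exon and use of the downstream one leaves out the segment between them. On these arrays the longer product is the inclusion form and the shorter one the exclusion form. A segment whose length is a multiple of 3 adds or removes whole codons when it lies in coding sequence, and any other length shifts the reading frame there.

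Gel assays were designed by the study for 2 of the 807 events, in *Fkbp2*, a peptidyl-prolyl isomerase of the endoplasmic reticulum, and *Tmem138*, a membrane protein needed by cilia. The study's primer list names the *Tmem138* event itself and an alternative 3' splice site of *Fkbp2*, which has a single event in the table. The primers are shown because they are the designed sequences for events of this type, each written 5′ to 3′ and not mapped to a genome here.
Fkbp2 primer 1: gcgcagaagtgacagcac
Fkbp2 primer 2: tcaaactccgtcccatcttc
Tmem138 primer 1: tccgaatggctcctgttatc
Tmem138 primer 2: aagctgctggagtttttcca
The *Fkbp2* segment is 35 nt long and the *Tmem138* segment 72 nt, so that the first shifts the frame if coding and the second does not.

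For each event the deposited table lists how bright the exclusion form and the inclusion form were in 2 sets, A and B; each value is a summary of all arrays of its set. It does not name the sets by genotype. From its definition of its own score (mutant over wild type) and the study's methods (CAST over B6), set B was likely *Nxf1* CAST and set A *Nxf1* B6. No value per array or per pair is held, so no value below has an SD or an n, no difference could be tested across animals, and no p is given. The change of a form was the log2 of set B over set A, and the ratio of an event was the change of its exclusion form minus that of its inclusion form, so that a ratio above 0 means relatively more use of the downstream acceptor in set B. Differences over 0.5 on this log2 scale are called past the fold. The forms are read by different probe sets, whose brightness is not comparable, and therefore intensities do not give the share of an isoform.

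Values were present for 803 of the 807 events, and the events of *Cdv3*, *Phrf1* (44 nt), *Wnt11* and *Xbp1* had none in the paired comparison. Intensities of the 803 ran from 53 to 13108 with a median of 271, against a median of 296 over the whole table. Whole-number rounding could move a ratio by at most 0.044 (median 0.0122). Neuronal transcripts were bright: events of 8 of 9 listed neuronal genes were measured, with a summed intensity of 75638 in set A and 74184 in set B. Astrocyte genes (4 of 5 measured) summed to 31212 and 32060, and myelin genes (4 of 7) to 53104 and 51488. Endothelial genes (2 of 5) summed to 3389 and 3197, meningeal genes (2 of 4) to 1263 and 1062, and immature neuron genes (2 of 5) to 8322 and 8285. Choroid plexus was read by *Folr1* alone (495 and 463) and blood by *Alas2* alone (294 and 332), and none of 3 pituitary genes was measured. No sum moved by more than 0.25 on the log2 scale.

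The acceptor pairs were mostly close together. Segments ran from 24 to 4238 nt with a median of 70 nt and quartiles of 40 and 119 nt, 359 (44.5%) were 60 nt or shorter, and the longest lay in the zinc finger gene *Zfp780b*. Since the shortest was 24 nt, tandem acceptors a few nucleotides apart were not among them. Alternative 5' splice site events had a longer median of 91 nt, and cassette exons one of 101 nt.

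A minority of the segments would preserve the frame. Lengths divisible by 3 made up 230 of 807 (28.5%), a remainder of 1 made up 232 (28.7%) and a remainder of 2 made up 345 (42.8%). Alternative 5' splice site events had much the same make-up, with 31.4%, 26.8% and 41.8%. Cassette exons differed, with 53.3% of lengths divisible by 3 and 23.1% and 23.6% at the other remainders. The 5 most frequent lengths all had remainder 2: 23 events had 26 nt, 22 had 35 nt, 19 had 29 nt, and 15 each had 38 and 59 nt. Between 24 and 30 nt the share with remainder 2 was 47.2%, between 31 and 60 nt 46.3%, between 61 and 120 nt 36.5%, from there to 300 nt 40.7%, and over 300 nt 48.7%.

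**Figure D1:**
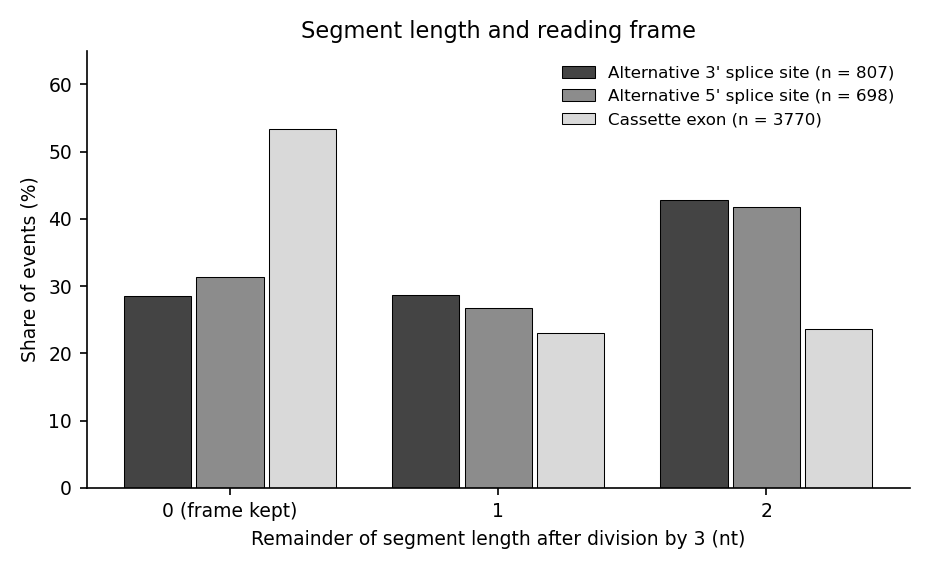
Share of events (%) by the remainder, in nt, of the segment length after division by 3, for alternative 3' splice site events (807), alternative 5' splice site events (698) and cassette exons (3770). Both kinds of splice site events peak at remainder 2 (42.8% and 41.8%), whereas 53.3% of cassette exons are divisible by 3.

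Of the 803 events, 73 (9.09%) passed the fold, each in a different gene, against 909 of 12556 events of all types (7.24%). The downstream acceptor was relatively more used in set B in 55 (6.85%, against 4.52% over all types) and less used in 18 (2.24%, against 2.72%). Thus 75.3% of those past the fold lay above 0, against 62.4% over all types. When ratios were taken relative to the median of all events of like brightness and like balance of the forms (10 bins of each), the split was 43 against 25 (63.2% above 0, against 48.6% over all types). Ratios past 1 were held by 1 event in each direction, against 28 over all types (0.223%), 12 above (0.0956%) and 16 below (0.127%).

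The middle and upper part of the distribution lay slightly higher than over all types, and the lower tail did not. The median ratio was 0.09, and 487 events (60.6%) lay above 0, against a median of 0.03 and 55.4% over all types. The lowest 10% ended at -0.31 in both, and the highest 10% began at 0.43 against 0.37. The median change was 0.08 for the exclusion form and -0.01 for the inclusion form. Alternative 5' splice site events, the mirror image in which the donor is chosen, leaned the other way: 28 were above 0.5 (4.02%) and 47 below -0.5 (6.74%), with a median of 0.01. Retained introns resembled the acceptor events in their total (9.86% past the fold, 69 above and 36 below), and cassette exons were at 8.57%. These differences between types were not tested.

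**Figure D2:**
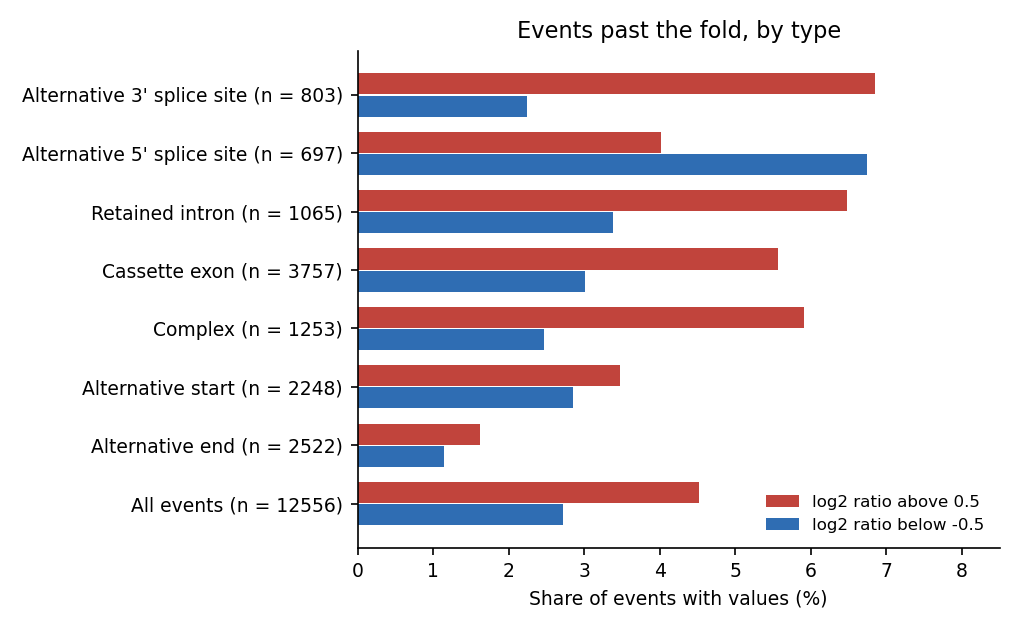
Share of events with values (%) whose log2 ratio lay above 0.5 (red) or below -0.5 (blue), by event type and for all 12556 events. Twin cassettes and mutually exclusive exons are not drawn apart. Alternative 3' splice site events reach 6.85% above and 2.24% below, and alternative 5' splice site events 4.02% above and 6.74% below.

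The median ratio was higher among segments that would shift the frame. Among 575 lengths not divisible by 3, the median ratio was 0.12, 63.7% lay above 0, and 43 events were above 0.5 against 11 below -0.5. Among 228 lengths divisible by 3, the median was 0.02, 53.1% lay above 0, and 12 events were above against 7 below. The shares past the fold were 9.39% and 8.33%. With the brightness trend subtracted the medians were 0.08 and 0.00, with 34 above and 16 below in the first class and 9 on each side in the second. Restricted to events with all 4 intensities at 100 or more, the counts were 30 against 6 and 7 against 6. After 16 was added to each intensity they were 34 against 9 and 10 against 3, so that the split was nearly the same in both classes (79.1% and 76.9% above). Centring on all events put the medians at 0.08 and -0.01. For lengths above 120 and up to 300 nt the medians were 0.09 (not divisible) and 0.10 (divisible). The difference between the classes was not tested. The remainders 1 and 2 had equal medians of 0.12, with 20 above and 3 below for the first and 23 above and 8 below for the second.

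By length, the share past the fold was 5.62% for 24 to 30 nt (3 above and 2 below of 89), 9.29% for 31 to 60 nt (19 and 6 of 269), 10% for 61 to 120 nt (18 and 7 of 250), 11.0% for longer ones up to 300 nt (11 and 2 of 118) and 6.49% for over 300 nt (4 and 1 of 77). Above outnumbered below in every class, and the median ratio was between 0.05 and 0.12 in all. Dim probe sets accompanied these numbers: the segments longer than 120 and up to 300 nt had the lowest median exclusion intensity in set A, 170, against 246 to 292 elsewhere. Over all lengths, events with any intensity under 100 passed the fold in 12.9% of 186 cases, and the others in 7.94% of 617, with much the same split (18 above and 6 below against 37 and 12). The part of brightness in these shares was not tested.

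**Figure D3:**
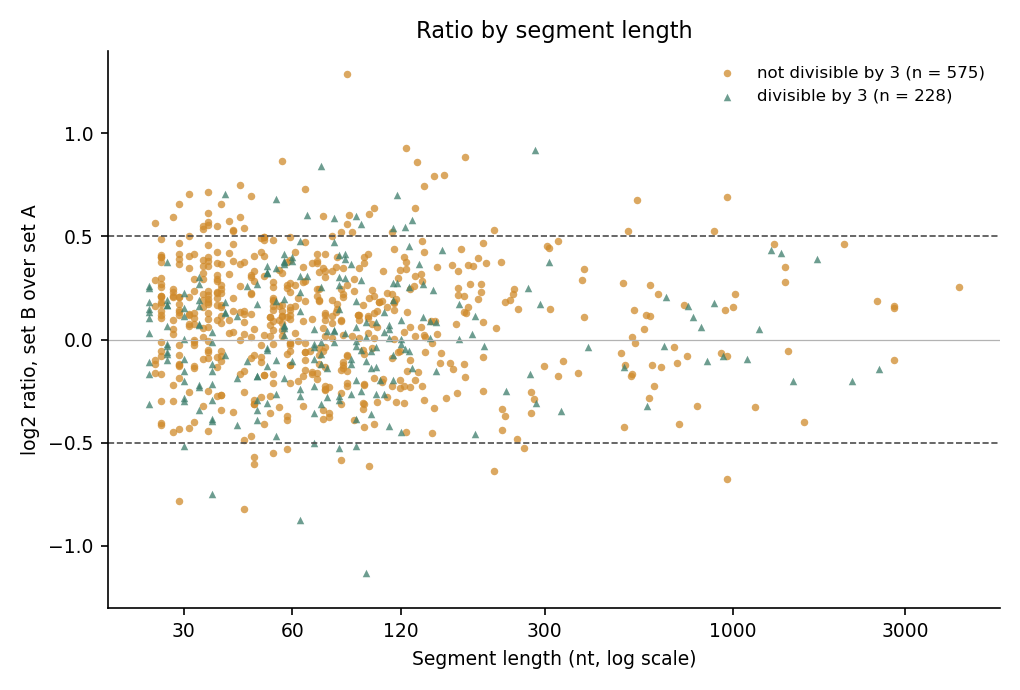
log2 ratio of set B over set A against segment length (nt, log scale) for 803 alternative 3' splice site events, with lengths divisible by 3 as triangles (228) and others as circles (575); dashed lines mark 0.5 and -0.5. Points past the fold occur in every length class, the longest at 965 nt, and those above 0.5 (55) outnumber those below -0.5 (18).

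Across chromosomes, 20 held at least 15 events with values. Their counts are small, stand beside 9.09% past the fold over all 803 events, and were not tested. Chromosome 6 had the highest share, 20.6% of 34, with 5 above 0.5 and 2 below -0.5. Chromosome 17 had 8 events above 0.5 and 0 below among 54, and chromosome 5 had 7 and 1 among 51. Chromosome 14 was the opposite, with 0 above and 3 below among 26 and a median ratio of -0.14, of which *Sorbs3* and *Tssk4* are described here. Chromosome 19, which carries *Nxf1*, had 3 above and 0 below among 23. Of these, *Tmem138* lies in the congenic segment. *Cutc* (chr19:43835214-43837392) and *Fam178a* (chr19:45016916-45017938) lie outside the span used for it below, and each had an intensity under 100. The median was 0.09 on the plus strand and 0.10 on the minus strand, with 10.5% and 7.79% past the fold.

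The form that moved differed between events. In the 55 events above 0.5, the exclusion form was higher in set B in all 55 and the inclusion form lower in 50, and the exclusion form moved more in 41. Their median changes were 0.46 for exclusion and -0.18 for inclusion. In the 18 events below -0.5, the exclusion form was lower in all 18 and the inclusion form higher in 17, the exclusion form moved more in 12, and the medians were -0.35 and 0.28. Both forms moved by more than 0.25 in opposite directions in 12 of the 55 and 5 of the 18, a reciprocal exchange of the forms. The events were selected on the difference between the changes of the forms, so these signs follow in large part from the selection. The same counts were not made for other event types. An intensity under 100 was involved in 18 of the 55 and 6 of the 18. One path of the *Ccl1* event, among the 18, is placed on a chromosome other than that of the gene, and without the 4 events with such a path the counts were 55 and 17.

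**Figure D4:**
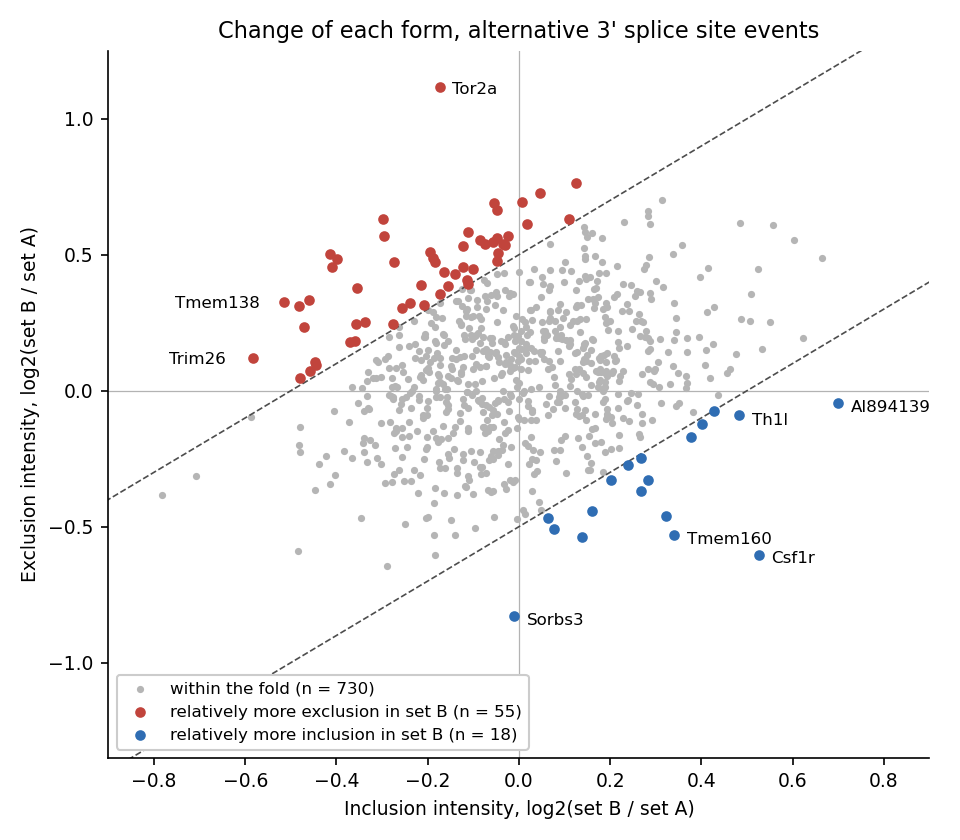
Change of the exclusion form (vertical) against that of the inclusion form (horizontal), both as log2 of set B over set A, for 803 alternative 3' splice site events; dashed lines mark ratios of 0.5 and -0.5. The 55 red events lie above the upper line and the 18 blue ones below the lower line, with *Tor2a* moved through its exclusion form and *Trim26* through its inclusion form.

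The strongest shift to the downstream acceptor was in *Tor2a*, which encodes a torsin, an ATPase of the endoplasmic reticulum lumen. From set A to set B its exclusion intensity went from 192 to 416 and its inclusion intensity from 423 to 375, for an 85 nt segment in an event at chr2:32612970-32614276. The ratio was 1.29, the ninth by size among all 12556 events, and nearly all of it was the exclusion form (1.11). *Cerkl*, a ceramide kinase-like gene known from retinal degeneration, moved the same way, with exclusion at 184 and 297, inclusion at 133 and 128 and a ratio of 0.75. *Anp32e*, a chaperone that removes the histone variant H2A.Z, had exclusion intensities of 524 and 831 beside an inclusion form that changed by -0.05 on the log2 scale to 117, a ratio of 0.71. In *Cerkl* and *Anp32e* the longer product was nearly level between the sets, in *Tor2a* it changed by -0.17 (log2), and the shorter one was brighter in set B in all 3.

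Other events exchanged the forms. *Spr*, the reductase of the last step of tetrahydrobiopterin synthesis, had exclusion at 158 and 221 and inclusion at 385 and 292, a ratio of 0.88. *Gpr124* (*Adgra2*), an adhesion receptor of brain endothelium, had exclusion at 282 and 386 and inclusion at 150 and 113, a ratio of 0.86. *Armcx2*, an X-linked armadillo repeat gene, had exclusion at 316 and 469 and inclusion at 357 and 291, a ratio of 0.86. In all 3 the segments (181, 133 and 56 nt) were not multiples of 3.

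Some of the named genes act in the extracellular matrix or as its receptors. *Loxl3*, a lysyl oxidase that crosslinks collagen and elastin, had exclusion at 111 and 172 and inclusion at 172 and 140, a ratio of 0.93. *Ltbp1*, which holds latent TGF-beta in the matrix, had exclusion at 386 and 487 and inclusion at 95 and 69, a ratio of 0.80. Its inclusion probes were thus dim, and its alternative start event had a ratio of -0.447. *Ddr1*, a receptor tyrosine kinase for collagen, had exclusion at 361 and 536 and inclusion at 373 and 367, a ratio of 0.59 for its 28 nt segment. In the opposite direction, the heparan sulfate proteoglycan *Gpc2* of developing neurons had exclusion at 519 and 365 and inclusion at 182 and 192, a ratio of -0.58. Both acceptor events of the collagen gene *Col27a1* lay inside the fold (-0.035 and -0.396). These genes were grouped after their values were seen, the share past the fold among all matrix genes was not counted, and the group was not tested.

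The strongest shift to the upstream acceptor was in *Csf1r*, the receptor that microglia need for survival. From set A to set B its exclusion intensity went from 415 to 273 and its inclusion intensity from 318 to 458, with changes of -0.60 and 0.53 and a ratio of -1.13 for a 96 nt segment. Its alternative end event, elsewhere in the gene, had intensities of 434 and 459 and of 191 and 218 and a ratio of -0.11. The listed microglia genes that were measured, *Csf1r* itself and *Itgam*, summed to 1767 in the first set and 1789 in the second, and *Cx3cr1* and *Aif1* were not measured. In whole brain, fewer cells of a type and less RNA per cell cannot be told apart.

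The ligand of that receptor also held an event. *Csf1*, macrophage colony-stimulating factor, had exclusion at 328 and 457 and inclusion at 748 and 723, a ratio of 0.53 over a long segment of 884 nt. It stood just past the fold and fell below it when all ratios were centred on the median of the table (0.49), when 50 was added to each intensity (0.47) and when the brightness trend was subtracted (0.42). The ratios of the receptor and ligand events had opposite signs, the first through both forms and the second mainly through its exclusion form. These genes were set side by side after their values were seen, and no link between their events was tested.

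**Figure D5:**
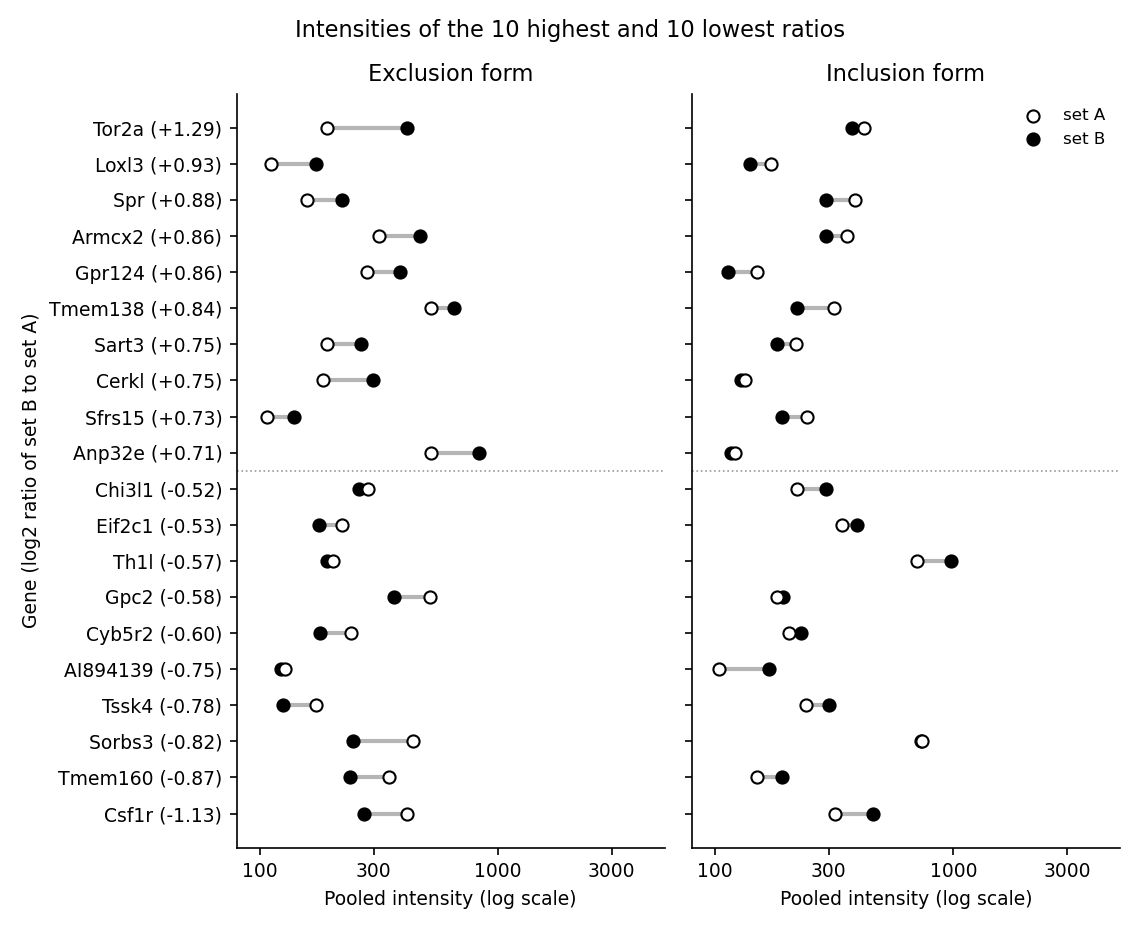
Pooled intensity (log scale) of the exclusion form (left) and inclusion form (right) in set A (open) and set B (filled) for the 10 highest and 10 lowest ratios among events with all 4 intensities at 100 or more; the log2 ratio stands beside each gene. Filled points lie right of open ones on the left and left of them on the right in the upper 10, and the reverse in the lower 10, apart from *Sorbs3*, nearly level on the right.

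*Tmem160*, a mitochondrial membrane protein, had exclusion at 347 and 240 and inclusion at 150 and 190, a ratio of -0.87. *Sorbs3* (vinexin), an adaptor of focal adhesions, moved through its exclusion form alone, at 439 and 247, beside inclusion at 737 and 732, a ratio of -0.82. *AI894139* (*Zfp956*) was the reverse case, with an exclusion form that changed by -0.05 (log2) from 127 and inclusion at 104 and 169, a ratio of -0.75. A ratio of one size can thus stem from a lower shorter form or a higher longer one.

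Named events in genes that act on transcription, RNA or translation, put together here after their values were seen, are given next. *Sart3*, which recycles the U4/U6 snRNP, had exclusion at 191 and 265 and inclusion at 219 and 181, a ratio of 0.75. *Sfrs15* (*Scaf4*), which binds the tail of RNA polymerase II, had exclusion at 107 and 139 and inclusion at 243 and 190, a ratio of 0.73. *Th1l* (*Nelfcd*), a subunit of the factor that pauses the polymerase, had exclusion at 203 and 191 and inclusion at 702 and 981, a ratio of -0.57. *Sart3* and *Sfrs15* exchanged the forms, whereas *Th1l* was higher in the longer one.

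*Eif2c1* (*Ago1*), an Argonaute of the microRNA pathway, had exclusion at 222 and 177 and inclusion at 342 and 393, a ratio of -0.53. *Eef1b2*, the exchange factor of translation elongation factor 1, had bright exclusion probes at 2289 and 1892 and inclusion at 215 and 254, a ratio of -0.52. Both fell inside the fold when 16 was added to each intensity (-0.50 for each). *Mrpl3*, of the large subunit of the mitochondrial ribosome, had exclusion at 235 and 290 and inclusion at 797 and 667, a ratio of 0.56. It dropped inside the fold when the brightness trend was subtracted or 50 was added to each intensity.

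Enzymes and signalling proteins were also among the named events. *Trim26*, a ubiquitin ligase and the brightest of those named above 0.5, had exclusion at 947 and 1029 and inclusion at 3808 and 2540, so that its ratio of 0.70 came from a lower longer form. *Dusp16*, a phosphatase of MAP kinases, had an exclusion form that was 0.69 higher (log2) in set B, at 199, and inclusion at 518 and 520, a ratio of 0.69. *Wnk2*, a kinase, had exclusion at 452 and 608 and inclusion at 2688 and 2437, a ratio of 0.57. *Dusp16* and *Wnk2* were higher mainly in the shorter form.

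*Rab34*, a GTPase of ciliogenesis, had exclusion at 130 and 189 and inclusion at 217 and 206, a ratio of 0.61. *Nek11*, a kinase of the DNA damage response, had exclusion at 126 and 150 and inclusion at 120 and 95, a ratio of 0.59. *Relb*, a subunit of NF-kappaB, had exclusion at 122 and 84 and inclusion at 170 and 187, a ratio of -0.68. Dim probe sets under 100 stood in the last pair of genes, as they did in *Cyp2r1*, the vitamin D 25-hydroxylase (82 and 115, then 164 and 144, ratio 0.68) and *Cutc*, named for copper homeostasis (76 and 110, then 74 and 68, ratio 0.66). *Rab34*, *Nek11*, *Relb*, *Cyp2r1* and *Cutc* all fell inside the fold when 50 was added to each intensity, with values from 0.41 to 0.47 and, for *Relb*, of -0.47.

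*Tmem138* exchanged the forms and lies in the congenic segment, at chr19:10649425-10649729. Exclusion intensities were 521 and 653 and inclusion intensities 316 and 221, with changes of 0.33 and -0.52 and a ratio of 0.84. The second gel-assayed event, in *Fkbp2* at chr19:7053631-7054883, had exclusion at 713 and 759 and inclusion at 990 and 1251. Its ratio was -0.25, inside the fold, and came from the inclusion form (0.34).

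The borders of the congenic segment are not given as coordinates in the sources used here. The span between the outermost events of a few genes assigned to it, among them *Fkbp2*, *Ganab*, *Stx3* and *Tmem138*, was used instead. In this span, chr19:7053631-11866235, the table held 70 events with values, of which 5 were of this type. Whether events outside it, such as that of *Klc2* at chr19:5117432-5118121 (ratio -0.385), lie in the segment is not known here. Beside *Tmem138* and *Fkbp2* the 5 events in the span were *Dnajc4*, a J-domain co-chaperone (exclusion 2142 and 2049, inclusion 175 and 139, ratio 0.27), *Vegfb*, a growth factor (1338 and 1570, 728 and 723, ratio 0.24) and *Prpf19*, a ubiquitin ligase of the spliceosome (1431 and 1550, 815 and 817, ratio 0.11). Thus 1 of the 5 passed the fold, and the signs were mixed. The assembly of the coordinates is not given in the sources used here.

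The gene families are given as counts, beside the 9.09% past the fold over all 803 events, from which counts of this size cannot be told apart. Of 28 events in genes of RNA binding, splicing and helicases, 1 lay above 0.5 and 0 below, and their median was 0.16; beside *Sfrs15*, the next was *Ddx17*, an RNA helicase, with exclusion at 984 and 1236, inclusion at 896 and 817 and a ratio of 0.46. Of 28 events in zinc finger genes, 1 was above (*Zfp740*, 537 and 578, then 236 and 173, ratio 0.55, or 0.46 with 50 added) and 0 below, with a median of 0.19. Of 14 events in chromatin genes none passed, with a median of 0.17 and values from -0.27 to 0.46. The medians of these 3 lists were above the 0.09 of all 803 events, which is not particular to them. Medians of other lists were also above it, such as phosphatases (0.17), actin and myosin (0.14) and transporters (0.12). Others were below it, such as ion channels (0.03) and kinases (-0.01).

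No event of the ion channel, synapse, neurotransmitter receptor and transporter lists passed the fold, lists too small to be set apart from the 9.09% of all 803 events. None of 7 in ion channel genes passed (median 0.03): *Cacna1g*, a T-type calcium channel, had exclusion at 221 and 179 and inclusion at 3810 and 4095 (-0.41), and *Kcnj9*, an inwardly rectifying potassium channel, had 379 and 419 and 99 and 85 (0.36). None of 7 in synapse and vesicle genes passed (median 0.12), among them *Syt3*, a calcium sensor of membrane fusion, with 253 and 243 and 189 and 240 (-0.40). The receptor events were those of *Grm6*, a metabotropic glutamate receptor (0.36), and *Gabra6*, a GABA-A receptor subunit of cerebellar granule cells (512 and 596, 2932 and 3094, ratio 0.14). Of 15 in transporter genes none passed, with a median of 0.12 and values from -0.14 to 0.38.

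In the other families, 2 of 13 kinase events were above and 0 below (median -0.01, *Nek11* and *Wnk2*), as were 1 of 13 in the ubiquitin pathway (0.11, *Trim26*), 1 of 11 in phosphatases (0.17, *Dusp16*), 1 of 18 in Rab and trafficking genes (0.09, *Rab34*) and 1 of 3 in mitochondrial genes (0.04, *Mrpl3*). Of 8 in translation and the ribosome, 0 were above and 1 below (0.03, *Eef1b2*), and of 8 in genes named Tmem, 1 was above and 1 below. None of 5 microtubule and motor events or 5 actin and myosin events passed. None of the 803 lay in the genes whose introns hold an IAP retrotransposon in the study's list. Over all types only 41 of 12556 events, in 23 genes, did so, too few for this absence to be read as a result.

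The list of genes of 3' splice site recognition and the second catalytic step also holds related factors such as *Srrm1* and *Raver1*. It had 1 event of the type, in *Ptbp1*, which encodes a repressor that binds pyrimidine tracts. Its exclusion intensity was 413 and 484 and its inclusion intensity 1785 and 1654, a ratio of 0.34 for a segment of 119 nt. Over all event types, 34 events in 18 genes of this list had a median ratio of -0.01, with 1 above 0.5 and 1 below -0.5. The first was an alternative end of *Ptbp2*, the neuronal paralogue (1682 and 1583, 321 and 209, ratio 0.53). The other was a cassette event of *U2af2*, the large subunit of U2AF (110 and 70, 1263 and 1215, ratio -0.60), whose exclusion probes were dim. It is listed at chr7:5018120-9225644, a span of megabases, so that a path may be misplaced. Placement was checked for acceptor events only, and this ratio may not reflect an exon of *U2af2*. The U2AF small subunit *U2af1* had a ratio of 0.19 and the branch point protein *Sf1* one of 0.01.

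Where a gene held several acceptor events, the ratios were of the same sign about as often as not. Of 30 such genes, 28 had 2 events and *Scyl3* and *Pou2f2* had 3. Among 29 with 2 or more values, the signs were the same in 15 and mixed in 14, and in none did 2 events pass the fold. *Tssk4*, a kinase of the male germ line, came closest: its 29 nt event had exclusion at 172 and 125 and inclusion at 240 and 300 (-0.78), and its 146 nt event 93 and 70 and 319 and 329 (-0.45). In *E4f1*, a regulator of p53, a 25 nt event had 105 and 152 and 147 and 144 (0.56, or 0.50 and no longer past the fold with 16 added), while a 92 nt event had 102 and 93 and 225 and 204 (0.01). In *Cdipt*, the phosphatidylinositol synthase, an 84 nt event stood at 0.42 and a 48 nt event at -0.34.

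Other events of the 73 genes are given beside the 7.24% past the fold over all 12556 events, from which counts of this size cannot be told apart. In 39 of the 73 genes the table held 75 further events, and 34 had no further event. Of the 75, 6 passed the fold and 9 overlapped the acceptor event. Those past the fold included events of *Mid1* (0.70, complex, overlapping), *Gnptg* (-0.53, retained intron), *Rab34* (0.54, cassette), *Ppcdc* (0.56, cassette) and *9530058B02Rik* (-0.64, cassette). In *Mid1* and *Rab34* the further event had the sign of the acceptor event, and in *Gnptg*, *Ppcdc* and *9530058B02Rik* the opposite sign.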

How the data were processed

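Affymetrix MJAY arrays were hybridized by the authors to brain RNA of 3 *Nxf1* B6 and 3 *Nxf1* CAST animals. Per the labels, the authors' processing used Affymetrix Power Tools, and its version, the array normalization, the q-value method and the assembly are not given in the sources used here. The authors deposited whole-number intensity values of each form, pooled over the arrays of a set, for a paired and a standard comparison. Their deposited separation scores and q-values hold the study's own comparison and were not used. Paired and standard intensities differed in 0 of the events described.

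Ratios were computed from the paired intensities of exclusion paths, 1 per event name and type, with 0.5 (log2) as the fold. The code for the ratio and its calls was checked on simulated data, in which the imposed changes were well past the fold and the noise was small. That check does not measure how reliable the calls on the real data are. Without values per array there is no depth, SD or test, and the 6 arrays limit precision. Gene symbols matched RefSeq (GRCm38.p6) directly for 653 events and by synonym for 104, and 50 matched none. *Zdhhc4* (81 nt) and *Slc9a5* (71 nt) share an event name with another type, which was kept apart.

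Named events were those with gel assays, the 10 highest and 10 lowest ratios with all intensities at 100 or more, the 5 largest per length and frame class, those in the span used for the congenic segment, and up to 2 per gene family. Members, lists and alternatives were chosen with earlier results of these data known. Alternatives were offsets of 16 and 50, the filter at 100, other folds, another path, centring, the brightness trend and genes in place of events. Leaving out events with a misplaced path, and standard intensities for the 4 events without paired ones, were added after seeing the data. Python 3.11.15, numpy 2.4.6, pandas 2.3.3 and matplotlib 3.10.9 were used. One gene is not reported here.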

Additional observations from a re-analysis of the deposited data

How the results depend on the processing

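No paired analysis was possible because the intensities are pooled over the animals of a set, and for the same reason no animal could be left out in turn. Adding 50 to each intensity reduced the events past the fold from 73 to 32 (25 above and 7 below), the median ratio to 0.08, the share past the fold to 3.51% for lengths divisible by 3 and 4.17% for others, and to 2.25% (24 to 30 nt), 4.09% (31 to 60 nt), 4.0% (61 to 120 nt), 6.78% (longer ones up to 300 nt) and 1.3% (over 300 nt). With a fold of 1 in place of 0.5, 2 events were left, 1 above and 1 below, which made 0.439% of lengths divisible by 3 and 0.174% of others, 0.8% from 61 to 120 nt and 0.0% in the other length classes. The median ratio of 0.09 became 0.06 when centred on all events, 0.05 with the brightness trend subtracted, and 0.1 with genes in place of events or without events with a misplaced path. The share over 300 nt, 6.49%, was 3.39% with all intensities at 100 or more and 3.9% when centred or with the trend subtracted. The other settings kept the counts of events past the fold within 1.5 times. The median of lengths divisible by 3 turned from 0.02 to -0.01 when centred, and no named ratio past the fold turned its direction. Of the 63 named events, 14 moved across the fold after adding 50 (*Cyp2r1*, *Cutc*, *Rab34*, *Nek11*, *E4f1*, *Mrpl3*, *Zfp740*, *Csf1*, *Fam178a*, *Eef1b2*, *Chi3l1*, *Eif2c1*, *Cyb5r2* and *Relb*), 5 after adding 16 (*E4f1*, *Fam178a*, *Eef1b2*, *Chi3l1* and *Eif2c1*), 2 after centring (*Csf1* and *Fam178a*) and 3 with the trend subtracted (these and *Mrpl3*). The cause of these moves was not tested beyond the construction of each alternative.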
